A study of Mus musculus with 10 samples.

Results

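Transcripts of 8 genes whose products fat tissue secretes were followed across the mammary gland libraries, namely Lep, Adipoq, Retn, Cfd, Rbp4, Apln, Nampt and Angptl4. They were chosen by name as classical adipokines and fat-secreted factors, with earlier results of these data known. All 8 were found among the 46983 genes counted. The study asked whether a period of higher folic acid (FA) intake in adulthood leaves a lasting mark on the transcriptome of the mammary gland. RNA came from 10 virgin female C57BL/6 mice, 1 library per mouse, 5 fed a control diet with 1 mg FA/kg (CFA) and 5 fed a high diet with 5 mg FA/kg (HFA). Each diet was given for 4 weeks, after which all mice of both groups ate the same maintenance diet for another 4 weeks, were fasted and were sampled on postnatal day 130. The whole thoracic mammary fat pad from the right side was extracted, so that fat, gland, vessels, lymph node and adjoining muscle can all lie in a sample, and a lower transcript level from fewer cells of a type cannot be told apart from less RNA per cell. No allele, transgene or drug separated the groups, and mice are named here by diet and a number that carries no order (CFA-1 to CFA-5, HFA-1 to HFA-5).

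Adipokines are proteins that adipocytes release into the blood or the surrounding tissue. Leptin reports the size of the fat store to the hypothalamus, adiponectin raises insulin sensitivity, and resistin opposes insulin action in the mouse. Adipsin (complement factor D) starts the alternative complement pathway, retinol-binding protein 4 carries retinol, apelin acts on vessels and heart through its own receptor, NAMPT makes the NAD precursor nicotinamide mononucleotide and is also found outside cells as visfatin, and ANGPTL4 inhibits lipoprotein lipase during fasting. In the mammary gland the epithelial ducts grow within such a fat pad, so transcripts of adipocytes are a large part of what is measured in a virgin mouse.

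All 8 are protein-coding genes, each on a different chromosome in GRCm38. Lep lies at chr6:29060220-29073877, Adipoq at chr16:23146536-23158028, Retn at chr8:3655770-3660110, Cfd at chr10:79890853-79892655 and Nampt at chr12:32819545-32853349, all on the plus strand. Rbp4 at chr19:38116629-38125281, Apln at chrX:48025146-48034853 and Angptl4 at chr17:33773750-33781830 lie on the minus strand. Only Nampt overlaps another annotated gene, the noncoding Gdap10 on the same strand, with which it shares 0 exonic bases.

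The 250 bases before the RefSeq transcript start are printed for 3 of the genes, Nampt and Apln because they had the smallest p-values between diets and Cfd because its level ran opposite to that of Apln. They are RefSeq sequences of GRCm38.p6, read 5′ to 3′ along the strand of the gene, from chr12:32820085-32820334 (plus), chrX:48034854-48035103 (minus) and chr10:79890603-79890852 (plus), and none of their bases lie in an annotated exon. The Nampt stretch lies inside the annotated gene, in an intron of a further transcript that starts upstream of the RefSeq start. Capitals mark matches on either strand to 6 short motifs, the TATA box TATAAA, the CCAAT box CCAAT, the GC box GGGCGG, the nuclear receptor core AGGTCA, the hypoxia response core ACGTG and the C/EBP core TTNNGNAA.
Nampt: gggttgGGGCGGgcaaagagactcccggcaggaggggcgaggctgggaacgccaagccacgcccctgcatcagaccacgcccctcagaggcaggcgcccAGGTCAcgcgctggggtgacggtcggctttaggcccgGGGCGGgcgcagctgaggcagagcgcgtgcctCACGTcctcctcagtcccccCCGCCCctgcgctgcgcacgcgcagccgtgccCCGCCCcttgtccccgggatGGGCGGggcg
Apln: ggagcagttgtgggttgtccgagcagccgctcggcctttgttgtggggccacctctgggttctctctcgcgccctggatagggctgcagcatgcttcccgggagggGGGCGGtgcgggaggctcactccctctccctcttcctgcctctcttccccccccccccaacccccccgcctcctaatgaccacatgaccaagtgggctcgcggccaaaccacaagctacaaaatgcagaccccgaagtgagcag
Cfd: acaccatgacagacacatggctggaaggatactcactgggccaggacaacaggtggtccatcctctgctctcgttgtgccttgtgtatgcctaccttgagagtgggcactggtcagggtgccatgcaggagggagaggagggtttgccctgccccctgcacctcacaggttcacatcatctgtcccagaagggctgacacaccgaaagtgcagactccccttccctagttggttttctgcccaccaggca
The Nampt promoter held 5 matches to the GC box, 1 to the nuclear receptor core and 1 to the hypoxia core, with 75.6% of its bases G or C. The Apln promoter held 1 GC box and the Cfd promoter held none of the 6 motifs, at 65.2% and 57.6% G or C. Such letters are common, since 32.74% of the 32851 promoters in the table held a GC box, 16.57% the hypoxia core, 14.02% the nuclear receptor core, 12.37% a TATA box, 33.85% a CCAAT box and 36.85% the C/EBP core. Promoters were found for 7 of the 8 genes, all but Angptl4. In the promoter of Lep a C/EBP core, TTGCGCAA, began 55 bases before the start, and the Adipoq promoter held 3 CCAAT boxes and 1 C/EBP core. Retn held none of the motifs. A match describes the letters and does not show that a factor binds.

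Gene counts summed to 7672199 in the shallowest library and 14829291 in the deepest. Levels are given as CPM (the counts of a gene relative to the depth of its library, after TMM scaling), and, where genes are compared with each other, as RPKM, which divides by the summed exon length. Before the diets are compared, 3 libraries have to be named. Markers of B and T lymphocytes averaged 4.99 to 7.71 on the log2 CPM scale in CFA-2, CFA-5 and HFA-5, against -0.25 to 0.45 in the other 7 libraries, 3 of CFA and 4 of HFA. The 16 adipocyte markers, none of them one of the 8 genes, were detected in every library, with a mean log2 CPM of 9.58 ± 0.22 (SD, n = 5) in CFA and 9.73 ± 0.45 (SD, n = 5) in HFA and the lowest value, 8.99, in HFA-5 (two-sided exact permutation test of the diets, p = 0.5). For Retn, Apln, Nampt and the correlations between genes, values are given with and without them.

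Per length, Cfd was the most abundant of the 8 genes and Apln the least. Over all 10 libraries Cfd reached 3614 ± 1134 RPKM (SD), Adipoq 1177 ± 260.1, Retn 329 ± 85.1, Rbp4 142 ± 41.4, Angptl4 65.2 ± 15.2, Lep 47.4 ± 27.0, Nampt 32.4 ± 7.36 and Apln 1.87 ± 0.586. From Cfd down to Rbp4 every gene stood above the next in all 10 libraries, and so did Nampt above Apln. Angptl4 stood above Lep in 9 of 10 libraries and Lep above Nampt in only 6 of 10, so the places of Lep and Nampt do not differ beyond their spread. Together the 8 genes took 0.464% to 0.743% of the counts of a library.

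**Figure D1:**
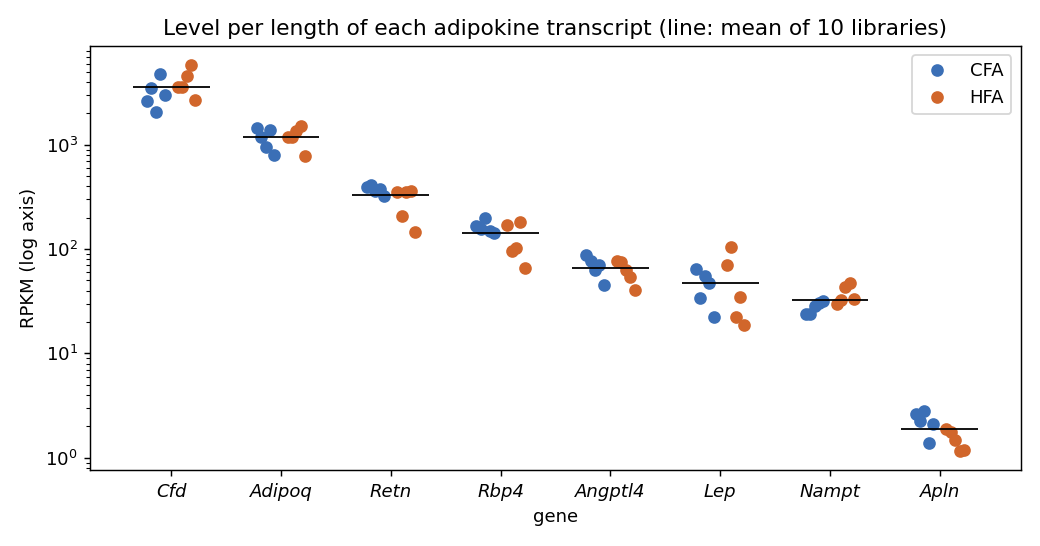
RPKM of each gene on a log axis, ordered by the mean of 10 libraries (line), with a point for each of the 5 CFA and 5 HFA libraries. Cfd and Adipoq lead at means of 3614 and 1177 RPKM, the points of Lep and Nampt overlap, and Apln lies far below the others at 1.87.

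Between the diets, none of the 8 genes changed past the threshold of an adjusted p below 0.05 (edgeR quasi-likelihood test, Benjamini-Hochberg over 15610 genes), and neither did any other gene, the share called over all genes being 0%. Of the 8, 4 had the higher mean in HFA (Nampt, Cfd, Lep, Adipoq) and 4 the lower (Apln, Retn, Rbp4, Angptl4). Their median log2 fold change was -0.047, against 0.064 over all genes tested. Nampt and Apln had an unadjusted p below 0.05, 1 in each direction, where 7.36% of all genes did, 3.87% with the higher level in HFA and 3.49% with the lower. For no member did the 5 libraries of one diet all lie above those of the other, which 0.993% of all genes showed. The adjusted p of the members ran from 0.655 to 0.956. All 8 passed the filter on low counts.

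**Figure D2:**
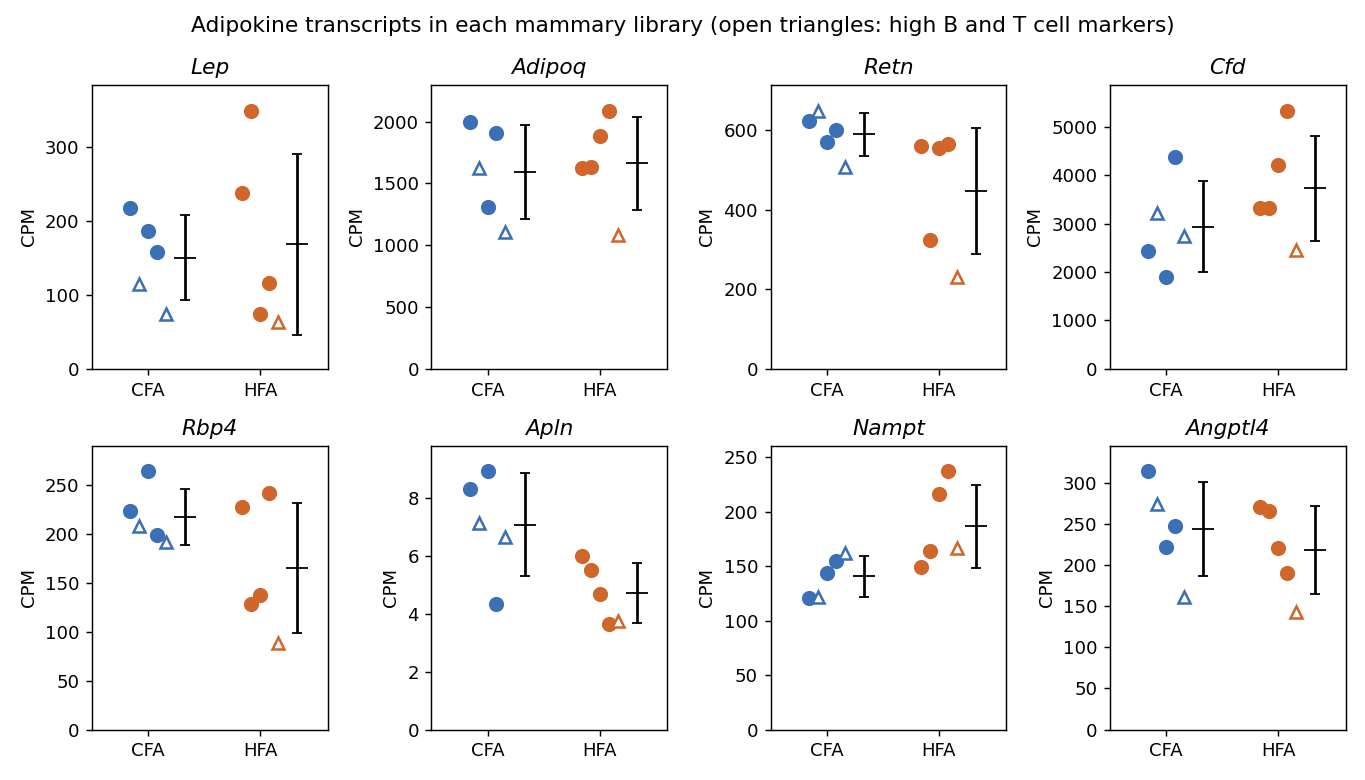
CPM of each gene in every library, by diet, with the mean and SD of 5 libraries beside the points and open triangles for the 3 libraries with high B and T cell markers. Nampt is the gene with 4 of 5 HFA libraries above all CFA libraries, all 5 HFA values of Apln and Retn lie below the CFA mean, and in both groups the triangles hold the lowest Lep.

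Leptin varied most. Lep stood at 218, 114, 187, 157 and 74.3 CPM in CFA-1 to CFA-5. In HFA-1 to HFA-5 it stood at 237, 348, 74.6, 116 and 63.3 CPM. The groups overlapped widely, with both the highest and the lowest of the 10 libraries fed HFA, 5.50-fold apart. Means were 150 ± 57.0 and 168 ± 122 CPM (SD, n = 5), a log2 fold change of 0.16 (SE 0.48; edgeR adjusted p = 0.944). Its SD within diets, 0.87 on the log2 scale, exceeded that of 86.5% of all genes tested, and the sign of its difference depended on the fit. Leaving out HFA-2, the library with the highest level, turned it to -0.29. Lepr, the leptin receptor, spanned 12.8 to 29.8 CPM in CFA against 6.77 to 50.3 CPM in HFA, highest in CFA-5 and HFA-5, the libraries in which Lep was lowest within each diet.

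Adiponectin had the smallest difference between diets. Adipoq was read at 1997, 1622, 1309, 1908 and 1108 CPM in CFA-1 to CFA-5. The HFA libraries gave 1624, 1636, 1879, 2087 and 1081 CPM. The values of the groups interleaved, and the log2 fold change was 0.064 (SE 0.25; edgeR adjusted p = 0.956), from means of 1589 ± 381 and 1661 ± 377 CPM (SD, n = 5). Its receptors differed by less than their spread too. Adipor2, the most abundant of the 8 receptor genes listed, averaged 847 ± 159 CPM in CFA against 842 ± 173 CPM in HFA (SD, n = 5), and Adipor1 had 197 ± 35.3 and 247 ± 65.0 CPM, a log2 fold change of 0.33 (SE 0.21; edgeR adjusted p = 0.742). Of the 8 receptors, 5 were higher in HFA, 3 lower, and 0 had an unadjusted p below 0.05.

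Resistin was lower on average after HFA. Retn lay at 623, 650, 571, 600 and 507 CPM in CFA-1 to CFA-5, a narrow band. In HFA-1 to HFA-5 it lay at 561, 325, 557, 566 and 232 CPM. In HFA, 3 libraries sat inside the CFA band, and HFA-2 and HFA-5 fell below every CFA library. The means were 590 ± 54.8 and 448 ± 158 CPM (SD, n = 5), a log2 fold change of -0.40 (SE 0.25; edgeR adjusted p = 0.738). All 5 HFA libraries were below the CFA mean. Set against the adipocyte markers of the same library, Retn was at -0.38 ± 0.30 log2 units in CFA and -1.01 ± 0.19 in HFA (SD, n = 5). With those markers as a covariate the log2 fold change became -0.64 (SE 0.18), with an unadjusted p of 0.00537 that did not pass the correction over all genes (edgeR adjusted p = 0.380). In the 7 libraries with low lymphocyte markers it was -0.26 (SE 0.21).

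Adipsin, at the other end of the range, was higher on average after HFA, within its spread. Cfd stood at 2431, 3229, 1897, 4370 and 2754 CPM in CFA-1 to CFA-5. It stood at 3313, 3323, 4217, 5331 and 2459 CPM in HFA-1 to HFA-5. In HFA, 4 of 5 libraries exceeded the CFA mean and 1, HFA-4, exceeded every CFA library. Means of 2936 ± 937 and 3729 ± 1090 CPM (SD, n = 5) gave a log2 fold change of 0.34 (SE 0.31; edgeR adjusted p = 0.811). C3, the complement protein on which the pathway started by adipsin converges, averaged 1036 ± 229 CPM in CFA against 1381 ± 283 CPM in HFA (SD, n = 5), for a log2 difference of 0.41 (SE 0.22; edgeR adjusted p = 0.688). Of the 6 complement partners tested, 5 were higher in HFA, 1 lower and 0 at an unadjusted p below 0.05, with a median log2 fold change of 0.41.

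Rbp4 resembled Retn in its means. The CFA libraries held 223.5, 208, 264, 199 and 192 CPM, again a narrow band. The HFA libraries held 228, 129, 138, 242 and 88.9 CPM. HFA-1 and HFA-4 sat within the CFA band, and the other 3 HFA libraries below all of it. Means were 217 ± 28.6 and 165 ± 66.6 CPM (SD, n = 5), a log2 fold change of -0.40 (SE 0.26; edgeR adjusted p = 0.745). With adipocyte markers as a covariate this was -0.61 (SE 0.22; edgeR adjusted p = 0.404).

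Among the 9 retinoid partners tested, 4 were higher in HFA and 5 lower, with a median log2 fold change of -0.19. Of the 5 lower, 1 had an unadjusted p below 0.05 in the edgeR test. Aldh1a1, the most abundant retinoid partner, an enzyme that makes retinoic acid, spanned 59.3 to 115 CPM in CFA against 10.7 to 214.02 CPM in HFA.

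Apelin was the least abundant of the set and had the largest difference. Apln was counted 33 to 137 times per library, so that counting error is part of its spread. It reached 8.31, 7.13, 8.91, 4.34 and 6.64 CPM in CFA-1 to CFA-5. In HFA-1 to HFA-5 it reached 5.98, 5.52, 4.68, 3.66 and 3.75 CPM. In CFA, 4 of 5 libraries lay above all HFA libraries, and CFA-4 lay below 3 of them. The means of 7.06 ± 1.77 and 4.72 ± 1.04 CPM (SD, n = 5) gave a log2 fold change of -0.58 (SE 0.24), with an unadjusted p of 0.0316 and an edgeR adjusted p of 0.656. In the 7 libraries with low lymphocyte markers the value was -0.54 (SE 0.29), with an unadjusted p of 0.0992. Its receptor gene Aplnr averaged 39.9 ± 12.2 CPM in CFA against 30.6 ± 11.7 CPM in HFA (SD, n = 5), for a log2 difference of -0.38 (SE 0.30; edgeR adjusted p = 0.785).

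Nampt had the smallest p-value of the 8. It stood at 121, 122, 144, 155 and 162 CPM in CFA-1 to CFA-5. In HFA-1 to HFA-5 it stood at 149, 164, 217, 237 and 167 CPM. In HFA, 4 of 5 libraries were above all CFA libraries, and HFA-1 was below 2 of them. The means were 141 ± 18.9 and 187 ± 37.9 CPM (SD, n = 5), 1.33-fold higher in HFA, a log2 fold change of 0.41 (SE 0.16). The unadjusted p was 0.0273 and the edgeR adjusted p 0.655. Without the 3 libraries of high lymphocyte markers the log2 fold change was 0.45 (SE 0.18; edgeR adjusted p = 0.182), in a fit that called 2.98% of all genes. With the brown and beige fat markers as a covariate it was 0.22 (SE 0.15). Those markers averaged 2.30, 3.69, 3.74, 4.31 and 5.08 on the log2 CPM scale in CFA-1 to CFA-5 and 4.61, 3.01, 5.93, 5.88 and 5.58 in HFA-1 to HFA-5, which differed between diets by 1.18 (two-sided exact permutation test, p = 0.127).

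Of the 11 genes of NAD metabolism listed with Nampt, 9 were higher in HFA, 2 lower, and 1 had an unadjusted p below 0.05. That was Sirt3, the NAD-dependent deacylase of mitochondria, at 15.7 ± 2.49 CPM in CFA and 22.4 ± 6.54 CPM in HFA (SD, n = 5), for a log2 difference of 0.51 (SE 0.21; edgeR adjusted p = 0.656). Nadk, the NAD kinase and the most abundant of the list, had 187 ± 13.4 and 213.5 ± 44.3 CPM.

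Angptl4 gave 313, 274, 222, 247 and 161 CPM in CFA-1 to CFA-5. It gave 271, 266, 221, 191 and 143 CPM in HFA-1 to HFA-5. The groups overlapped along most of their length and the log2 fold change was -0.16 (SE 0.22; edgeR adjusted p = 0.878), from means of 244 ± 57.2 and 218 ± 53.5 CPM (SD, n = 5). Lpl, the lipase that its protein inhibits, stood at 3063 to 4166 CPM in CFA and 2533 to 6036 CPM in HFA, for a log2 difference of 0.32 (SE 0.30; edgeR adjusted p = 0.817). Of the 12 genes listed around this lipase 10 were higher in HFA, 2 lower and 0 at an unadjusted p below 0.05.

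**Figure D3:**
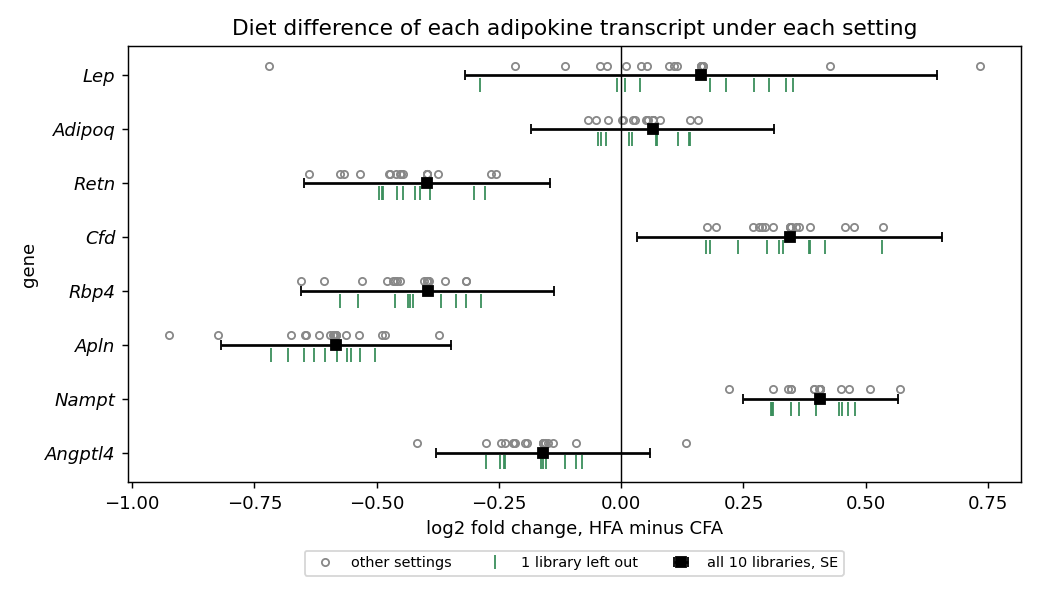
Log2 fold change (HFA minus CFA) of each gene, with the fit of all 10 libraries as a square with its SE, the fits with 1 library left out as ticks and the other settings as open circles. Retn, Rbp4 and Apln stay on the left of 0 and Cfd and Nampt on the right in every fit, while Lep, Adipoq and Angptl4 have points on both sides.

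Retn, Cfd, Rbp4, Apln and Nampt kept the sign of their difference in all 28 alternative fits, Angptl4 in 27, Adipoq in 22 and Lep in 21. No alternative brought a member past the threshold, the smallest adjusted p being 0.0995, for Nampt in limma with voom and quality weights. The 10 mice also differed in the second digit of the number in their titles, 2 for CFA-1, CFA-2, HFA-1, HFA-2 and HFA-3 and 3 for the rest, a digit whose meaning the labels do not give. Within digit 2 and digit 3 the log2 fold changes were 0.57 and 0.31 for Nampt, -0.49 and -0.93 for Apln, -0.37 and -0.57 for Retn, -0.36 and -0.48 for Rbp4 and 0.39 and 0.29 for Cfd. Lep had 0.43 and -0.72, Adipoq -0.052 and 0.055, and Angptl4 -0.19 and -0.42. The difference between digits passed the threshold for 0 members and for 0% of all genes (edgeR interaction term, smallest adjusted p of a member 0.624).

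Low values of several members met in the same libraries. CFA-5 held the lowest CFA value of 5 of the 8 genes, Lep, Adipoq, Retn, Rbp4 and Angptl4, and HFA-5 the lowest HFA value of the same 5 and of Cfd. These libraries also had the highest B and T cell markers of their diets, with B cell means of 6.78 and 8.29 and T cell means of 5.85 and 7.13 on the log2 CPM scale. Nampt did not share this, being highest of the CFA libraries in CFA-5.

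Because the 3 libraries stood apart, correlations between members were tested over the other 7, and r over all 10 is given as a description. That set was drawn up after the values had been seen. Of 28 pairs, Cfd and Apln were the only pair whose correlation passed the correction over pairs. Pearson's r of their log2 CPM was -0.987 (exact permutation p = 0.000198, the smallest that 5040 permutations can give, Benjamini-Hochberg adjusted p = 0.00556). Spearman's rho was -1 (exact permutation p = 0.000397, adjusted p = 0.0111), and r was -0.990 without the 2 libraries farthest from the median of Cfd. Over all 10 libraries r was -0.692, and -0.612 after centring within diets. From CFA-3 through CFA-1, HFA-1, HFA-2, HFA-3 and CFA-4 to HFA-4, Apln went down from 8.91 to 3.66 CPM and Cfd up from 1897 to 5331 CPM. Some steps were small. Cfd stood at 3313 and 3323 CPM in HFA-1 and HFA-2. Apln stood at 4.68 and 4.34 CPM in HFA-3 and CFA-4, from 33 and 60 counts. Libraries of both diets lay along that course, and a rho of -1 over all 7 already fixes the order within each diet. The adipocyte markers tended upward along it, averaging 9.53 and 9.49 in CFA-3 and CFA-1, 9.92 and 9.63 in HFA-1 and HFA-2, and 10.04, 9.94 and 10.08 in HFA-3, CFA-4 and HFA-4, and their part in it was not tested. Of the 3 libraries left out, HFA-5 lay far from the course, at 3.75 CPM of Apln with 2459 CPM of Cfd, and CFA-2 and CFA-5 near it.

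**Figure D4:**
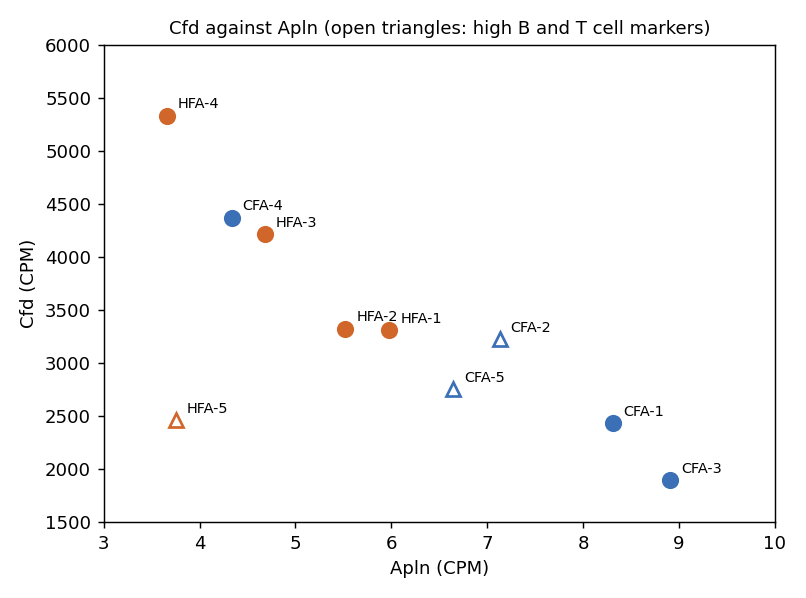
Cfd against Apln, both in CPM, 1 point per library, blue for CFA and orange for HFA, with open triangles for the 3 libraries with high B and T cell markers. The 7 filled points descend from CFA-3 (8.91 and 1897 CPM) to HFA-4 (3.66 and 5331 CPM), and the triangle of HFA-5 lies below them.

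A further 3 pairs had an unadjusted exact permutation p below 0.05 over the 7 libraries and did not pass the correction. Nampt and Angptl4 gave r = -0.833 (exact permutation p = 0.0194, adjusted p = 0.272), Apln and Nampt r = -0.812 (exact permutation p = 0.0312, adjusted p = 0.291) and Cfd and Nampt r = 0.778 (exact permutation p = 0.0417, adjusted p = 0.292). Their rho was -0.750 (p = 0.0663), -0.857 (p = 0.0238) and 0.857 (p = 0.0238) by the same exact permutation. Without the 2 libraries farthest from the median of the first gene named, r was -0.556, -0.723 and 0.778. Over all 10 libraries r was -0.518, -0.748 and 0.644 for these pairs. The pair with the highest r over all 10 libraries, Retn and Rbp4 at 0.863, gave 0.683 over the 7 (exact permutation p = 0.0601, adjusted p = 0.334).

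The genes whose log2 CPM followed each member most closely over the 10 libraries are given as a description, with r over all 10 and over the 7 libraries. The points share library depth and tissue makeup. Nampt ran closest to Ppargc1b, a transcriptional coactivator of mitochondrial genes (0.978 and 0.990), then to Nsun3 (0.973 and 0.989) and Afg3l2 (0.972 and 0.981), both of which act in mitochondria. Cfd ran closest to Mccc2, a subunit of the enzyme that breaks down leucine (0.958 and 0.976), to Tex264 (0.939 and 0.954) and to Dhrs7b (0.936 and 0.972). Apln was nearest to Srd5a1, a steroid reductase (0.907 and 0.889), Gng11 (0.900 and 0.930) and Has2, a hyaluronan synthase (0.879 and 0.856). Lep was nearest to the albumin gene Alb (0.969 and 0.961), Atrnl1 (0.952 and 0.930) and Glb1l (0.943 and 0.944). For Retn these were the homeobox gene Irx5 (0.965 and 0.893), the kinase gene Wnk4 (0.948 and 0.880) and Clba1 (0.937 and 0.812). Adipoq followed Pitpnm3 (0.959 and 0.911), the chloride channel gene Clcn2 (0.948 and 0.873) and Nrbp2 (0.934 and 0.806). Rbp4 followed Cd59b, a complement inhibitor (0.941 and 0.927), Nek5 (0.933 and 0.877) and Tcte2 (0.930 and 0.917), and Angptl4 followed the transcription factor gene Ets2 (0.967 and 0.880), Gprasp2 (0.962 and 0.870) and Ptprs (0.957 and 0.875).

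Genes related to the 8 by family or regulation showed more small differences upward than downward. Of 12 paralogs tested 9 were higher in HFA and 3 lower, of 17 other fat-secreted factors 13 and 4, and of 14 regulators of adipokine genes 12 and 2. Median log2 fold changes were 0.16, 0.23 and 0.25, against 0.064 over all genes, and the adjusted p of edgeR passed for 0 genes of any list. Angptl2, the most abundant paralog, had 242 ± 47.4 and 268 ± 90.6 CPM. Apoe led the secreted factors at 997 ± 157 and 1001 ± 99.9 CPM, and the adipocyte transcription factor Cebpa led the regulators at 394 ± 54.3 and 385 ± 91.5 CPM (CFA and HFA, SD, n = 5). Ppara, the nuclear receptor of the fasting response, was the single regulator at an unadjusted p below 0.05. It stood at 5.77, 6.03, 7.02, 12.9 and 16.1 CPM in CFA-1 to CFA-5 and at 15.6, 11.3, 34.5, 52.3 and 20.0 CPM in HFA-1 to HFA-5, a log2 fold change of 1.48 (SE 0.46; edgeR adjusted p = 0.648). With the brown and beige fat markers as a covariate this was 0.70.

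A set of 3 lists holds known targets of signals that also act on adipokine genes. Of 12 targets of PPAR and fasting, the signals that induce Angptl4, 8 were higher in HFA and 4 lower. An unadjusted p below 0.05 was reached by 3 of the higher and 1 of the lower, where 3.87% and 3.49% of all genes tested did. Pdk4, which holds back glucose oxidation, averaged 414 ± 132 CPM in CFA against 841 ± 224.2 CPM in HFA (SD, n = 5), for a log2 difference of 1.02 (SE 0.27; edgeR adjusted p = 0.648). The fatty acid oxidation genes Acadm and Acaa2 had log2 fold changes of 0.95 (SE 0.27) and 0.79 (SE 0.30). Pnpla2, the triglyceride lipase that leads the list, had 1141 ± 296 and 1600 ± 594 CPM. Angptl4 itself, at -0.16, did not share the sign of Pdk4 or Acadm.

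All 12 hypoxia targets had the higher mean in HFA, 2 of them at an unadjusted p below 0.05, with a median log2 fold change of 0.39. These were Pfkfb3, a regulator of glycolysis, at 0.47 (SE 0.20) and Bnip3, of mitophagy, at 0.63 (SE 0.28). Ldha, the most abundant, ranged from 751 to 1527 CPM in CFA and from 522 to 1912 CPM in HFA. It was lowest within each diet in CFA-2 and HFA-5, where muscle markers were lowest too, averaging 9.11 and 6.01 on the log2 CPM scale. The part of muscle in its level was not tested. Apln and Lep are themselves genes that low oxygen is known to induce, and their log2 fold changes were -0.58 and 0.16.

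All 9 glucocorticoid targets were higher on average in HFA too, with a median log2 fold change of 0.69 against 0.064 over all genes tested. An unadjusted p below 0.05 was reached by 3, where 3.87% of all genes reached it with the higher level in HFA. Cdkn1a, the cell cycle inhibitor p21, lay at 14.4, 15.7, 19.1, 20.7 and 23.0 CPM in CFA-1 to CFA-5 and at 33.7, 46.6, 36.6, 33.01 and 37.2 CPM in HFA-1 to HFA-5. Its groups did not overlap, which 0.993% of all genes showed in one direction or the other. Its log2 fold change was 1.01 (SE 0.16; edgeR adjusted p = 0.376, which no other gene undercut). The clock gene Per1 had 0.70 (SE 0.30) and the transcription factor gene Zbtb16 0.88 (SE 0.31), and Tsc22d3, the most abundant of the list, had 114 ± 39.4 and 180 ± 91.7 CPM (SD, n = 5).

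**Figure D5:**
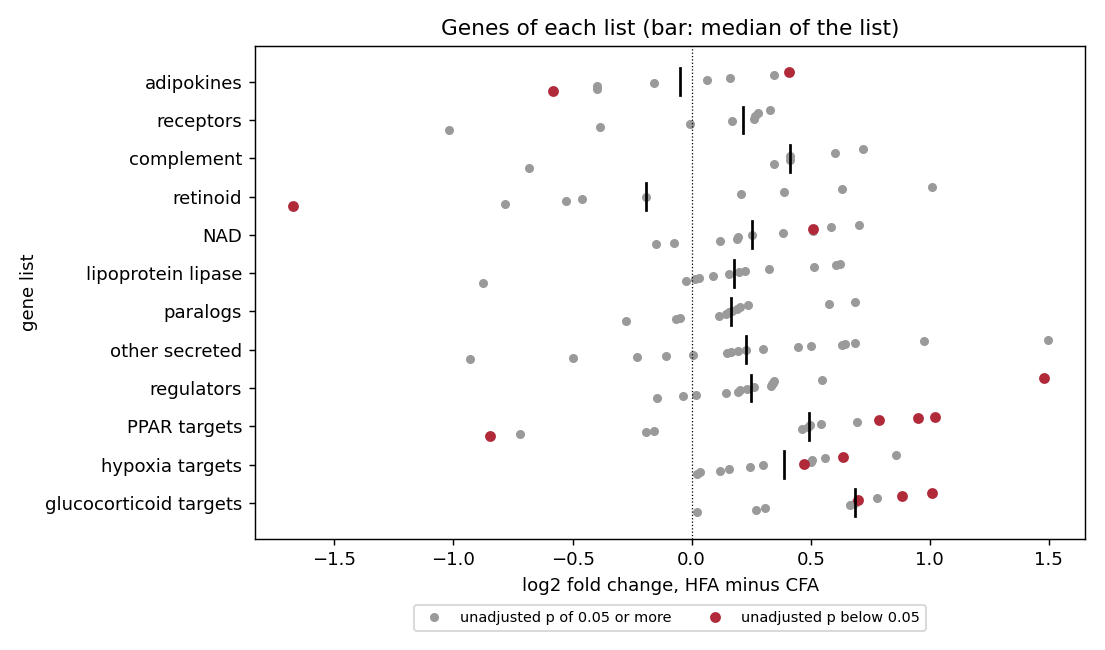
Log2 fold change (HFA minus CFA) of every tested gene in the adipokine list and 11 related lists, 1 point per gene, red where the unadjusted p is below 0.05, with a bar at the median of each list. The 12 hypoxia and 9 glucocorticoid targets all lie right of 0, while the adipokines lie on both sides with a median of -0.047.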

How the data were processed

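RNA of intact mammary fat pads was sequenced from unstranded TruSeq libraries, 1 per mouse. The authors aligned the reads to the mouse genome (GRCm38) with TopHat2 2.0.14 and Bowtie2 2.2.5 and counted them per Ensembl gene with HTSeq 0.6.1. The deposited values are raw whole-number counts of 46983 genes and 5 summary lines, which were left out of library sizes. Reads with several alignments made up 28.8% to 33.9% of the counted lines and were not assigned to genes. Symbols, positions and merged exon lengths came from GENCODE M21, which gave a symbol to 46488 genes.

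Counts of the 10 libraries, 5 per diet, were filtered by filterByExpr, scaled by TMM and tested by the quasi-likelihood test of edgeR 4.0.16 in R 4.3.3, HFA against CFA, with Benjamini-Hochberg adjustment over 15610 genes. The published model also held the cage, which the labels used here do not give. Log2 CPM used a prior count of 2. Marker lists were compared by their mean log2 CPM with the two-sided exact permutation test over 252 splits, whose smallest p is 0.00794. Correlations between members used exact permutation over 5040 orders (scipy 1.17.1). limma 3.58.1 and DESeq2 1.42.0 served as alternatives, and the closing section gives their effect.

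The 8 members and 22 further gene lists (247 of 248 symbols matched) were chosen with earlier results of these data known. Of each list of partners, the genes with an unadjusted p below 0.05, the most abundant gene (by mean log2 CPM, not per length), 4 receptors and Lpl were named, besides the 3 genes most like each member. Some genes that this rule selects are not reported here. The separate cultures, litters or cages of the mice are unknown, and counts carry no molecular identifiers. The titles share numbers apart from their first digit in 4 pairs of mice across diets, but the deviations of those pairs from their group means correlated at 0.30, -0.29, 0.11 and 0.41, so the numbers were not taken to pair the mice.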

Additional observations from a re-analysis of the deposited data

How the results depend on the processing

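No member passed an adjusted p of 0.05 in edgeR or in any of the 26 planned and 2 added alternatives. The 2 added ones, the 7 libraries with low B and T cell markers and a covariate of muscle markers, were chosen after seeing the data. The count of genes past it, 0 of 15610 (1149 at an unadjusted p below 0.05), was 33 with the likelihood ratio test, 60 with DESeq2, 1037 with voom and quality weights, 2 with a covariate of B and T cell markers, 1418 within title digit 2 and 469 in the 7 libraries with low B and T cell markers (185 higher, 284 lower), and 0 to 6 with 1 library left out, the 6 without HFA-5. With the other title digits as a replicate block it was 0 as well, and no call of a member changed under that block. The interaction with the title digit went from 0 genes to 31 with the likelihood ratio test and to 0 to 4058 with 1 library left out, the 4058 without HFA-4. The cause of the differences between these counts of genes was not tested.

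Among members the sign turned for Lep, from 0.16 to -0.030 with voom, -0.11 with the title digit as a term, -0.22 with the replicate block, -0.043 with the B and T cell covariate and -0.72 within digit 3, with -0.29 to 0.35 over the fits that left out 1 library. Adipoq turned to -0.027 with the B and T cell covariate, -0.067 with the adipocyte covariate and -0.052 within digit 2, with -0.048 to 0.14 over left-out libraries. Angptl4 turned to 0.13 with the brown and beige fat covariate.

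Of the 26 partner genes, 8 turned sign somewhere. Adipor2, at -0.0082, became 0.073 with voom and quality weights, 0.039 with the digit term, 0.094 with the replicate block, 0.27 within digit 2 and 0.010 in the 7 libraries, with -0.12 to 0.10 over left-out libraries. Apoe, at 0.0056, became -0.062 with upper-quartile scaling, -0.064 with no filter, -0.11 with voom and quality weights, -0.0080 with the digit term, -0.17 within digit 2 and -0.11 in the 7 libraries, with -0.10 to 0.046 over left-out libraries. Cebpa, at -0.035, became 0.068 with voom and quality weights, 0.011 with the digit term, 0.19 within digit 2 and 0.0074 in the 7 libraries, with -0.16 to 0.035 over left-out libraries. The B and T cell covariate gave Aldh1a1 -0.020 and Angptl2 -0.014, the adipocyte covariate gave Angptl2 -0.032, and digit 3 alone gave Aldh1a1 -0.41, Angptl2 -0.58 and Ldha -0.21. Nadk was -0.00033 with the brown and beige covariate, and Lepr ran from -0.30 (without HFA-5) to 0.52 over left-out libraries. Cdkn1a passed the adjusted threshold in 5 alternatives, among them DESeq2 (adjusted p = 3.1e-05) and the 7 libraries (0.0428), with adjusted p up to 1.00 elsewhere. Other partners named above passed it in some fits too. With voom and quality weights these were Pdk4 and Zbtb16 (adjusted p = 0.0338 each), Acadm (0.0394), Pfkfb3 (0.0417) and Adipor1 (0.0468). Within digit 2 they were Pdk4 (0.0378), Acadm (0.0380) and Ldha (0.0459), and in the 7 libraries Pdk4 and Zbtb16 (0.0428 each).

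The mean RPKM of Retn was 456 on its longest transcript. The median over markers gave -0.012 for adipocytes, -0.028 for muscle and 0.87 for the neutrophil and erythroid list (exact permutation p = 0.0238, not adjusted). The neutrophil genes of that list lay near the floor, with Ly6g at 0 CPM and S100a8 and S100a9 at most at 1.34 and 2.31 CPM. The value therefore describes the globin genes and Alas2. With 1 library left out, the difference between diets ran from 0.80 to 1.68 for brown and beige fat, -2.57 to 0.35 for B cells, -1.28 to -0.48 for basal cells, -0.33 to 1.27 for muscle, -1.04 to -0.20 for fibroblasts, -0.72 to -0.040 for luminal cells, -2.31 to -0.16 for T cells and -0.32 to 0.29 for macrophages. Of the 3 genes most like a member, Spearman in place of Pearson kept 1 for Lep, Cfd, Apln and Nampt and 0 for Adipoq, Retn, Rbp4 and Angptl4. Centring within diets kept 1 for Adipoq, Retn, Cfd and Apln and 0 for Rbp4. Depth limits Apln most among the members, at 33 to 137 counts per library.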

Other observations

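Of 11 cell marker lists, 0 differed between the diets past the correction (two-sided exact permutation test on the mean log2 CPM, smallest p = 0.127, adjusted p = 0.553). The brown and beige fat list stood 1.18 higher in HFA, and 9 of its 10 genes had the higher mean there, 4 of them at an unadjusted p below 0.05. Over all genes tested, 3.87% were higher and 3.49% lower at that p. Ucp1, the uncoupling protein of brown fat, had 1.51 to 297 CPM in CFA and 5.35 to 1031 CPM in HFA (log2 fold change 2.51, SE 1.26). Cox8b, the gene of the list with the highest mean log2 CPM, had 50.3 to 136 and 104 to 314.4 CPM. The basal epithelial list stood 0.95 lower in HFA (exact permutation p = 0.151) with all 8 genes lower, 1 of them at an unadjusted p below 0.05, led by Acta2 at 501 ± 264 and 307 ± 190 CPM (SD, n = 5). The luminal list stood 0.41 lower (exact permutation p = 0.444), with 8 of 10 genes lower, 2 of them at an unadjusted p below 0.05. These, named after their values were seen, were Wfdc18 at a log2 fold change of -2.14 (SE 0.50) and the epithelial adhesion gene Epcam at -0.96 (SE 0.41). The most abundant luminal gene, Prlr, the prolactin receptor, had 304 ± 147 and 370 ± 197 CPM. The mean of the fibroblast markers was 0.67 lower (exact permutation p = 0.341), with Col3a1, the most abundant, at 2676 ± 1297 and 1257 ± 1013 CPM. The list was split, with 5 of its 8 genes lower and 3 higher in HFA, at log2 fold changes from -1.09 to 0.83.

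Muscle markers differed by 0.070 (exact permutation p = 0.984) and ranged from 9.11 to 11.7 in CFA and from 6.01 in HFA-5 to 12.1, with Myh4 at 192 to 19000 CPM in HFA. HFA-1 to HFA-4, at 11.9, 12.1, 11.8 and 12.1, lay above every CFA library. Without HFA-5 the difference was 1.27 (exact permutation p = 0.0317, not adjusted). All 10 muscle genes had a higher level in HFA in the edgeR fit of 10 libraries, 0 of them at an unadjusted p below 0.05. Endothelial markers differed by 0.10 (exact permutation p = 0.437; Pecam1 162 ± 15.4 and 186 ± 43.5 CPM), macrophage markers by -0.076 (exact permutation p = 0.905; Lyz2 393 ± 70.1 and 462 ± 394 CPM) and neutrophil and erythroid markers by 0.35 (exact permutation p = 0.143; Hbb-bs 61.1 ± 11.7 and 104 ± 26.3 CPM). B cell markers differed by -0.82 (exact permutation p = 0.905), with Cd79b at 1.24 to 135 CPM in CFA and 0.710 to 444 CPM in HFA, and T cell markers by -0.95 (exact permutation p = 0.643), with Tcf7 at 8.74 to 127 and 3.20 to 336 CPM. The edgeR fit had the other sign for both lists. All 3 B cell and all 8 T cell genes tested were higher in HFA there, with median log2 fold changes of 1.08 and 0.66. Of these, 0 had an unadjusted p below 0.05. Among adipocyte markers, which differed by 0.15, Car3 led at 9023 ± 2056 and 12234 ± 4399 CPM (SD, n = 5).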
